A study of Arabidopsis thaliana with 36 samples.

Results

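The transcripts described here are those of the mitochondrial genome of Arabidopsis thaliana leaves. They are the rows of the count tables whose locus code starts with ATMG and whose counts summed to at least 100 over the 36 libraries. There were 27 such rows, out of 146 mitochondrial rows and 28774 rows that name a gene. Rosette leaves 9 to 12 were taken from plants grown on soil for 5 weeks in days of 8 h light and 16 h dark. Genotypes were wild type (WT, Col, stock CS60000) and the lines ivd1-2 and hml1-2, each carrying a lesion in a gene of branched-chain amino acid breakdown. Leaves were sampled at 0 h, after 6, 24, 48 or 72 h of unbroken darkness, or after another 72 h in the normal cycle of days and nights, called 72 h of light here. Each of the 18 groups had 2 libraries, and the sources used here do not say whether these came from separate plants, so p-values rest on a spread between samples that may be technical.

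Plant mitochondria keep a small genome of their own, which encodes a few subunits of the respiratory chain and of ATP synthase, factors for cytochrome c maturation, some ribosomal proteins, ribosomal RNAs and transfer RNAs. Most other mitochondrial proteins, including the polymerases, splicing factors and editing factors that act on mitochondrial RNA, are encoded in the nucleus and imported. Mitochondrial transcripts are spliced, edited and trimmed after transcription, and in plant mitochondria a poly(A) tail promotes decay of the RNA that bears it. The reference annotation used here does not pair the member codes with gene names, so members are given by code. The libraries are taken as polyadenylated RNA, so levels are those of captured transcripts.

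Depth ran from 13638597 to 49398596 counts per library, of which 2290 to 22564 fell on the 27 members. IVD, the gene of isovaleryl-CoA dehydrogenase, stood in ivd1-2 at 17.8% of the WT level averaged over conditions (adjusted p = 2.48e-10, edgeR). HML1 stood in hml1-2 at 59.2% (adjusted p = 3.98e-07, edgeR). All 4 leaf mesophyll markers checked (RBCS1A, CAB1, RCA and CA1) had counts in every library, and their summed level was 735 to 2110 CPM (counts per library size, scaled) after 72 h of darkness and 40800 to 53600 CPM in 72 h of light. RBCS1A ranged from 124 to 15400 CPM over all libraries and CA1 from 19.2 to 6700. Of 4 flower markers, VGD1 was at 0 in all 36 libraries, AP3 reached 0.0989 CPM and AG 0.9 CPM, while PI had a median of 1.24 CPM, reached 14.6 and was at 0 in 4 libraries. Of 3 root markers, CASP1 was at 0 in 28 libraries and PIN2 in 14, with a highest level of 0.837 CPM, and CASP2 had a median of 10.5 CPM and reached 60.6. At 72 h the 3 root markers summed to 12.5 to 60.6 CPM in darkness and 0.15 to 0.718 in light, and the 4 flower markers to 2.4 to 14.8 and 0.247 to 0.989. In darkness most of these sums came from 1 gene each, CASP2 and PI. The 2 phloem markers (SUC2 and PP2-A1) summed to 96.4 to 213 CPM in darkness and 173 to 326 in light, and the 4 guard cell and epidermis markers to 55.5 to 102 and 100 to 146. The part of these markers in the results was not tested. The 2 libraries of ivd1-2 after 72 h of darkness differed more from each other than those of any other group. Across genes, their levels correlated at a Pearson r of 0.884, where the pairs of other groups gave 0.931 to 0.989 (genes are not independent samples). On mitochondrial rows replicate 2 of this pair was the higher, with 0.0721% of its counts against 0.0389%. Counts of members and of the gene lists that rest on this pair are given without each of its libraries where that moves them by over 1.5 times or turns a median.

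Counts were concentrated on few rows. Of the 146 mitochondrial rows, 98 were at 0 in every library, 21 held 1 to 99 counts and 27 reached the limit. The members held 367476 counts and the rows below the limit 875. ATMG00020 with 155634 counts and ATMG01390 with 108746 together made up 71.9% of member counts, and the 5 most counted members made up 91.0%. The others of these 5 were ATMG00030 (30757 counts), ATMG00090 (27302) and ATMG00060 (12029). The gene lists used here class ATMG00020, ATMG01390 and ATMG01380 as ribosomal RNA, a role that the reference annotation could not be used to check. Counts are not adjusted for transcript length, so they do not rank the members by level per length. Just inside the limit were ATMG01350 with 187 counts, ATMG00630 with 108 and ATMG01220 with 102. Just outside were ATMG00710 with 80, and ATMG00513 and ATMG00150 with 76 each.

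The rows at 0 lay in blocks of neighbouring codes. Of the 35 codes from ATMG00170 to ATMG00500, 1 had a count above 0, and of the 39 codes from ATMG00730 to ATMG01110, 3 did, with 76 counts in all. The reference annotation notes a matching nuclear locus for 53 of the 146 codes. Of these 53, 46 were at 0, 6 held 1 to 99 counts and 1, ATMG01220, was a member. Of the 93 codes with no such note, 52 were at 0, 15 held 1 to 99 counts and 26 were members. Among the rows at 0 with a note were those described there as apocytochrome b (ATMG00220), cytochrome c oxidase subunit 3 (ATMG00730), NADH dehydrogenase 3 (ATMG00990) and ATP synthase subunit 1 (ATMG01190).

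Arabidopsis chromosome 2 carries a large insert of mitochondrial DNA, and the letters of the reference (TAIR10.1) show how far the copies match there. The submitters list the TAIR10 build, whose mitochondrial sequence was not compared, so the shares below are those of TAIR10.1 only. Of all 50-base windows of the mitochondrial genome, 70.6% also occurred letter for letter in the nuclear chromosomes, 70.4% on chromosome 2, and 28.9% occurred nowhere else. Of 36 named mitochondrial genes of the reference, 10 had at least 90% of their windows unique to them, among them cox1, nad9, rrn26 and rrn18. For 22 genes at most 10% were unique, and for atp1, cob, cox3 and nad6 none were. The deposited tables list no read as aligned to several places in any library, so such reads had been removed or were not marked before counting. The matching nuclear loci also held few counts, at most 493 for 1 locus (AT2G07715) over all libraries. At such rows a count of 0 does not show that a gene is not expressed. If such reads were removed, the counts of a member that is only partly unique would come from a part of the gene. Member codes were not paired with these genes here, so this was not tested.

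**Figure D1:**
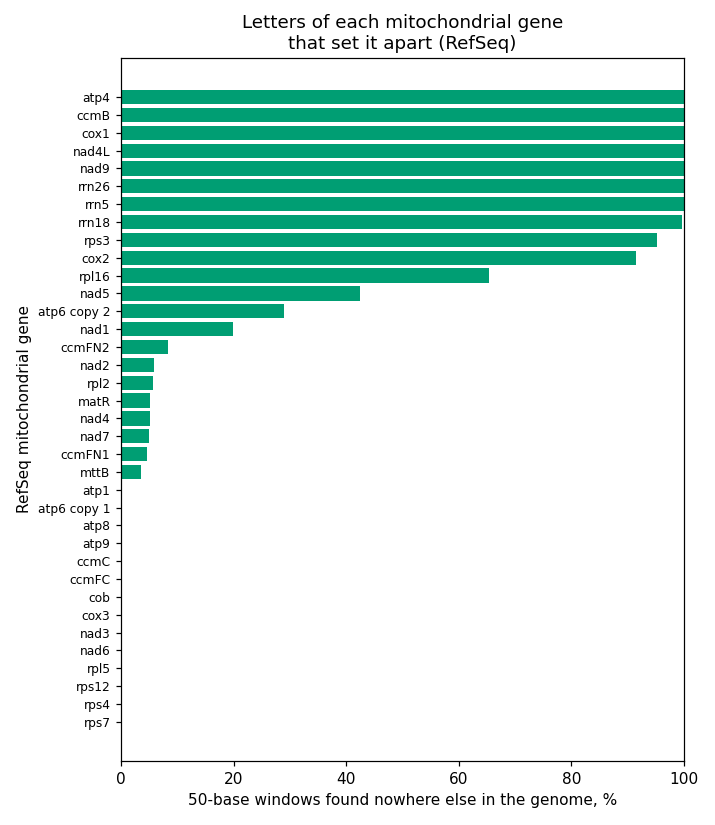
Share of 50-base windows (x axis, %) of each of 36 named mitochondrial genes of the TAIR10.1 reference (y axis) that occur nowhere else in the nuclear, plastid or mitochondrial genome. In 10 genes the share is at least 90%, and in 22 it is at most 10%.

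Mitochondrial rows made up a larger share of all counts after 24, 48 or 72 h of darkness than at 0 h, by the median of the libraries. The share over all ATMG rows ranged from 0.0168 to 0.0318% at 0 h, with a median of 0.0224% over 6 libraries. The median was 0.0266% after 6 h of darkness, 0.0379% after 24 h, 0.0472% after 48 h and 0.0492% after 72 h, and 0.0196% in 72 h of light. At 72 h all 6 dark libraries (0.0389 to 0.0721%) lay above all 6 light libraries (0.0166 to 0.0272%). The dark libraries at 48 h (0.0362 to 0.0755%) overlapped those at 72 h. In WT the mean share was 0.0243% at 0 h, 0.0239% after 6 h, 0.0611% after 48 h and 0.0497% after 72 h. These are shares of a library, and in bulk leaves a change in the number of cells or mitochondria cannot be told apart from a change in RNA per cell.

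Other measures of the libraries also differed between conditions. Rows of the plastid genome held a median of 0.0921% of counts at 0 h, 0.139% after 24 h of darkness, 0.10% after 72 h and 0.102% in 72 h of light. Reads assigned to no gene were at a median of 0.613% of all counted reads at 0 h and 1.21% after 72 h of darkness, against 0.684% in 72 h of light. Within groups, replicate 1 had the higher mitochondrial share in 16 of the 18 groups and the higher share of reads in no gene in 4. The part of these measures in the results was not tested. A fit with the replicate number as a block is given below.

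**Figure D2:**
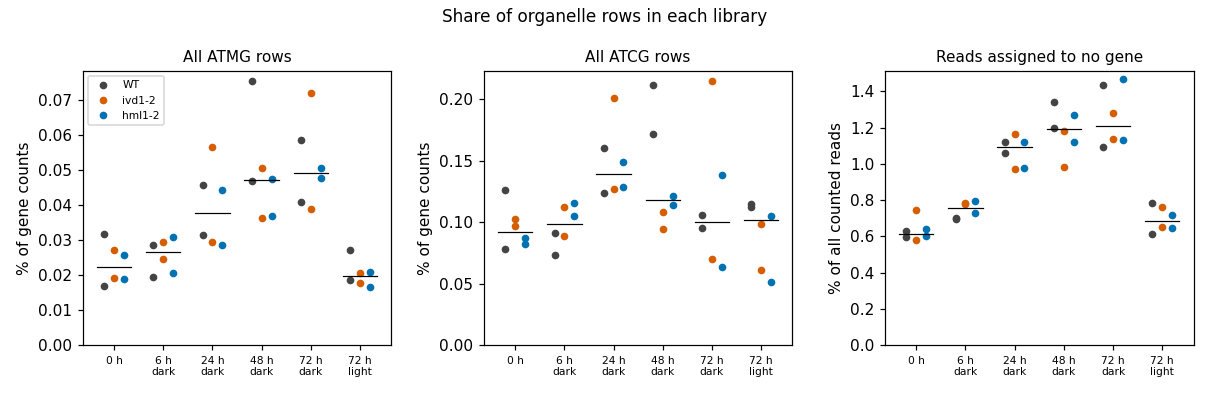
Share of gene counts on mitochondrial rows (left, %) and plastid rows (middle, %), and share of all counted reads assigned to no gene (right, %), for each of 36 libraries. Points are libraries coloured by genotype and lines are medians of the 6 libraries of a condition. At 72 h the dark libraries lie above the light libraries in the left and right panels and overlap them in the middle one.

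The members were compared between conditions with edgeR's quasi-likelihood test over all 19457 genes that passed a filter on low counts, and a gene passed at a Benjamini-Hochberg adjusted p under 0.05. The filter kept 26 of the 27 members and left out ATMG01220. It asks for enough counts in at least 2 libraries, the size of a group, so that a row with few counts is kept more easily where some group is high. The comparisons with 0 h share the same 6 libraries at 0 h. Light libraries were taken only at 72 h, so after 6 h the effect of darkness cannot be told apart from that of the time of day. Averaged over the 3 genotypes, 5 members rose and none fell after 6 h of darkness, when 30.0% of all genes tested rose and 32.7% fell. After 24 h, 19 rose and none fell (33.8% and 36.8% of all genes). After 48 h, 20 rose and none fell (35.9% and 39.9%), and after 72 h, 22 rose and none fell (37.7% and 40.5%). The 0 that fell after 48 h rests on all 12 libraries: ATMG00160, ATMG00670 or both passed as lower in 5 of the 12 fits without 1 library. These were the fits without replicate 2 of WT or of ivd1-2 at 0 h, or without replicate 1 of any genotype at 48 h. With DESeq2's size factors ATMG00670 passed as lower after 48 h (log2 fold change -0.63, adjusted p = 0.0473, edgeR). With the replicate number added to the fit as a block, 10 members rose after 6 h. In that fit ATMG00160 and ATMG00670 passed as lower after 48 h (adjusted p = 0.00198 and 0.0307, edgeR). ATMG00160 also passed as lower after 72 h (adjusted p = 0.00729, edgeR).

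The median log2 fold change of the 26 members was 0.38 after 6 h, 1.29 after 24 h, 1.66 after 48 h and 2.20 after 72 h. The median over all genes lay between -0.09 and -0.06 in these comparisons. It depends on the library that TMM scaling takes as its reference: with replicate 1 of ivd1-2 at 72 h of darkness as reference, a choice added after seeing the data, it was -0.11 after 6 h and -0.24 to -0.22 later. The counts of members that rose were then 5, 17, 19 and 22, and ATMG00160 passed as lower after 48 and 72 h and ATMG00670 after 48 h. No member was lower at an unadjusted p under 0.05 after 6, 24 or 72 h and 1, ATMG00670, was after 48 h, and DESeq2's test called none lower at an adjusted p under 0.05. The number that rose after 6 h was less firm than the later ones. It was 3 with DESeq2's test. It was also 3 without replicate 2 of WT at 0 h, of WT at 6 h or of ivd1-2 at 6 h. ATMG00650 lost its call in 6 of 12 fits without 1 library and ATMG00580 in 4.

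The members that rose after 6 h were ATMG01170, ATMG00110, ATMG00650, ATMG00090 and ATMG00580. ATMG00110 ranged from 0.155 to 0.607 CPM at 0 h, with a median of 0.413, and from 0.859 to 1.27 after 6 h, with a median of 1.16. Every library at 6 h was above every library at 0 h. Its log2 fold change was 1.41 (SE 0.24, adjusted p = 3.1e-05, edgeR). ATMG00090 had 7.14 to 11.7 CPM at 0 h (median 10.1) and 15 to 17.9 after 6 h (median 17.4), again with no overlap, and rose by a log2 fold change of 0.77 (SE 0.16, adjusted p = 0.000339, edgeR).

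ATMG00110 went on to show the steepest course among the members with over 1000 counts. Its median level was 5.01 CPM after 24 h (4.82 to 6.04), 8.91 after 48 h (8.28 to 10.5) and 15.3 after 72 h (8.80 to 19.4). In 72 h of light it was 0.507 CPM (0.345 to 0.572). The dark levels at 24 h and later were above every library at 0 h, 6 h and in the light, and the ranges at 24, 48 and 72 h overlapped only between 48 and 72 h. At 72 h the log2 fold change of darkness against light was 4.91 (SE 0.24, adjusted p = 8.08e-14, edgeR), a fold of 30.0.

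ATMG01170 and ATMG00080 followed a similar course at lower counts. ATMG01170 had a median of 0.249 CPM at 0 h (0.143 to 0.589), 2.05 after 24 h (1.87 to 2.50), 3.47 after 48 h (2.84 to 3.95) and 6.00 after 72 h (3.94 to 9.81), with 0.392 in 72 h of light (0.0986 to 0.540). ATMG00080 had 0.489 at 0 h (0.310 to 0.642), 1.96 after 24 h (1.39 to 2.37), 4.51 after 48 h (2.84 to 6.03) and 7.56 after 72 h (5.46 to 12.3), with 0.536 in the light (0.224 to 0.600). In both, every library from 24 h on was above every library at 0 h and in the light. At 72 h against light the log2 fold change was 4.09 (SE 0.31) for ATMG01170 and 4.06 (SE 0.30) for ATMG00080, and both passed (adjusted p = 9.64e-11 and 5.04e-11, edgeR).

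ATMG01360 and ATMG00070 rose by a smaller factor at 72 h against light, and whether their time course differed from the others was not tested. ATMG01360 was at a median of 1.36 CPM at 0 h (1.09 to 2.45) and 1.52 after 6 h (1.39 to 2.57), which overlap. It was at 3.97 after 24 h (2.77 to 6.13), 7.48 after 48 h (4.90 to 11) and 12.3 after 72 h (6.64 to 19.6), against 1.49 in 72 h of light (1.08 to 1.94). Its log2 fold change at 72 h against light was 3.05 (SE 0.29, adjusted p = 2.84e-09, edgeR). ATMG00070 was at 0.480 CPM at 0 h (0.299 to 0.821), 0.829 after 6 h (0.573 to 0.982), 1.54 after 24 h (1.06 to 2.22), 2.98 after 48 h (1.2 to 4.11), 4.48 after 72 h of darkness (2.67 to 6.15) and 0.892 in 72 h of light (0.630 to 0.986). Its dark and light libraries at 72 h did not overlap, and the log2 fold change was 2.44 (SE 0.36, adjusted p = 2.26e-06, edgeR).

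**Figure D3:**
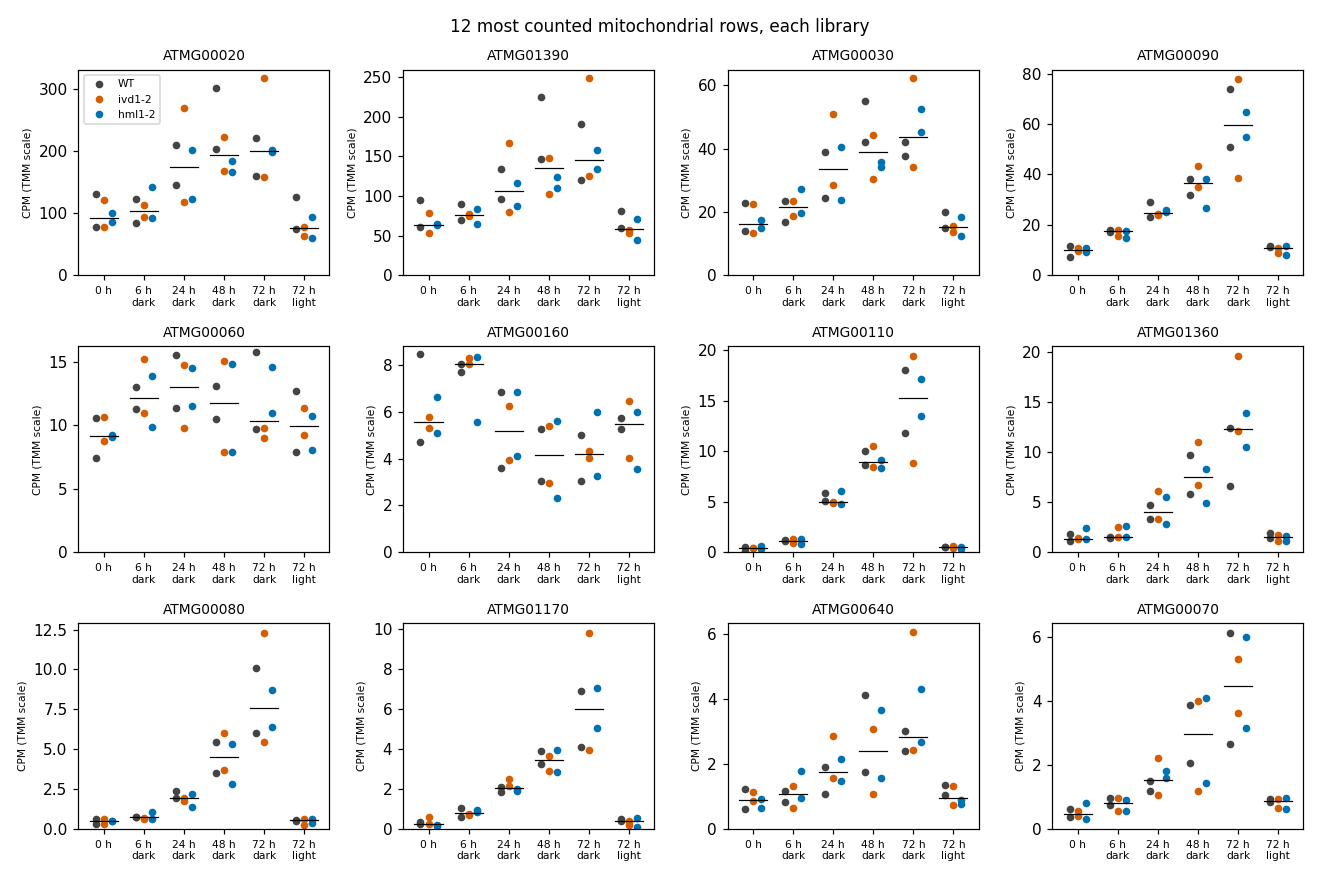
Level (y axis, CPM on the TMM scale) of the 12 most counted members in each of 36 libraries by condition (x axis). Points are libraries coloured by genotype and lines are medians of the 6 libraries of a condition. ATMG00110, ATMG00080 and ATMG01170 climb at each time in darkness and are low at 0 h and in 72 h of light, while ATMG00060 and ATMG00160 overlap across conditions.

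The 3 most counted members rose by a smaller factor. ATMG00020 was at a median of 93.2 CPM at 0 h (78.2 to 132), 104 after 6 h (83.8 to 143), 175 after 24 h (119 to 269), 194 after 48 h (167 to 303) and 201 after 72 h (159 to 319). In 72 h of light it was at 76.6 CPM (59.6 to 127), below every dark library of that time. The ranges at 24, 48 and 72 h overlapped widely. Its log2 fold change was 0.84 (SE 0.24) after 24 h, 1.05 (SE 0.24) after 48 h and 1.07 (SE 0.24) after 72 h against 0 h, and 1.35 (SE 0.24, adjusted p = 2.78e-05, edgeR) at 72 h against light.

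ATMG01390 had a median of 63.7 CPM at 0 h (53.9 to 94.6), 146 after 72 h of darkness (121 to 249) and 58.1 in 72 h of light (45.0 to 81.4). ATMG00030 had 16.2 CPM at 0 h (13.3 to 22.8), 43.7 after 72 h of darkness (34.3 to 62.4) and 15.3 in 72 h of light (12.4 to 20). In both, the dark libraries at 72 h were above all libraries at 0 h and in the light. The log2 fold change at 72 h against light was 1.41 (SE 0.21) for ATMG01390 and 1.53 (SE 0.21) for ATMG00030, and both passed (adjusted p = 3.57e-06 and 1.06e-06, edgeR).

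ATMG00090, the fourth most counted, lay between these and the steep risers. Its median was 24.8 CPM after 24 h of darkness (23.1 to 29.1), 36.6 after 48 h (26.8 to 43.4), 59.8 after 72 h (38.7 to 78.0) and 10.9 in 72 h of light (8.04 to 11.8). It had the smallest adjusted p after ATMG00110 at 72 h against light (9.64e-12, edgeR), with a log2 fold change of 2.54 (SE 0.17). ATMG00640 was at 0.895 CPM at 0 h (0.621 to 1.24), 2.84 after 72 h of darkness (2.40 to 6.05) and 0.960 in the light (0.746 to 1.35), and rose by a log2 fold change of 1.76 (SE 0.34) at 72 h against light (adjusted p = 8.62e-05, edgeR).

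Of the members tested, 4 did not pass at 72 h in the mean of the genotypes, either against 0 h or against light. ATMG00060, the fifth most counted, was at a median of 9.19 CPM at 0 h (7.45 to 10.7), 12.1 after 6 h (9.84 to 15.2), 13 after 24 h (9.81 to 15.5), 11.8 after 48 h (7.89 to 15.1), 10.4 after 72 h (8.97 to 15.8) and 9.99 in the light (7.93 to 12.7). All these ranges overlapped. After 24 h the log2 fold change was 0.47 (SE 0.20, adjusted p = 0.0418, edgeR), a call lost in 7 of 12 fits without 1 library and in DESeq2's test. It did not pass at 72 h against light, with 0.20 (SE 0.20, adjusted p = 0.361, edgeR).

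ATMG00160, the sixth most counted, was at a median of 5.55 CPM at 0 h (4.73 to 8.5), 8.06 after 6 h (5.58 to 8.37), 5.20 after 24 h (3.62 to 6.87), 4.16 after 48 h (2.34 to 5.60), 4.19 after 72 h (3.06 to 6.02) and 5.50 in the light (3.55 to 6.46). The dark and light ranges at 72 h overlapped. Its log2 fold change was -0.55 (SE 0.27, adjusted p = 0.0654, edgeR) after 48 h and -0.27 (SE 0.26, adjusted p = 0.358, edgeR) at 72 h against light. With the replicate number as a block, ATMG00160 passed as lower against 0 h after 48 h (-0.59, adjusted p = 0.00198, edgeR) and 72 h (-0.49, adjusted p = 0.00729, edgeR). ATMG00670 was at 0.742 CPM at 0 h (0.621 to 1.02), 0.465 after 48 h of darkness (0.394 to 0.878), 0.619 after 72 h (0.353 to 0.864) and 0.442 in the light (0.298 to 0.568). Its log2 fold change was -0.63 (SE 0.29, adjusted p = 0.052, edgeR) after 48 h. ATMG01380 had 0.467 CPM in the light (0.197 to 0.870) and 0.696 after 72 h of darkness (0.353 to 1.03), with a log2 fold change of 0.40 (SE 0.32, adjusted p = 0.248, edgeR). ATMG00160 passed as lower after 72 h against 0 h when replicate 1 of hml1-2 at 72 h was left out (log2 fold change -0.66, adjusted p = 0.0438, edgeR). Against light, ATMG01380 passed as higher without replicate 1 of hml1-2 in light (0.89, adjusted p = 0.0165, edgeR), and ATMG00670 without replicate 2 of hml1-2 in darkness (0.63, adjusted p = 0.0499, edgeR) or that of WT.

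The light libraries had spent the same 72 h in normal days and nights. Against 0 h no member rose or fell in edgeR's test, and of all genes 0.0411% rose and 0.0206% fell. Of the 26 members, 2 reached an unadjusted p under 0.05, ATMG00670 and ATMG01120, both lower in the light, and DESeq2's test called none. The median log2 fold change of the members was -0.05.

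Against these light libraries of the same time, 22 of 26 members rose in darkness and none fell in the mean of the 3 genotypes, when 38.8% of all genes rose and 39.5% fell. The fold changes ran from a log2 value of -0.27 to 5.33 with a median of 2.02, and the median over all genes was -0.01. In 19 of the 27 members all 6 dark libraries lay above all 6 light libraries, in none did they lie below, and in 8 they overlapped. Over all genes tested, 5216 were separated upward, 5590 downward and 8651 overlapped. These counts include 4 members, described next, that met the limit mainly through darkness. Without them 18 of 22 members rose, the median was 1.77 and the highest value 4.91, and 15 of 23 were separated. The 18 still include ATMG00630, with 49 counts in darkness and 7 in light at 72 h, and ATMG00690, with 183 and 45. Both met the limit or the filter mainly through darkness, and ATMG00690 is also among the 15 of 23 that were separated. The 18 also include ATMG00580, ATMG01120 and ATMG01130, with 46, 34 and 33 counts in light. Among the 15 members with at least 1000 counts, 13 rose, the median was 1.76 and 12 were separated. All these counts describe the members. With the other TMM reference named above, the median over all genes was -0.20 and 22 members rose. Without replicate 1 or without replicate 2 of ivd1-2 at 72 h of darkness, 22 members rose and none fell. Without the filter on low counts the numbers were also 22 and 0.

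**Figure D4:**
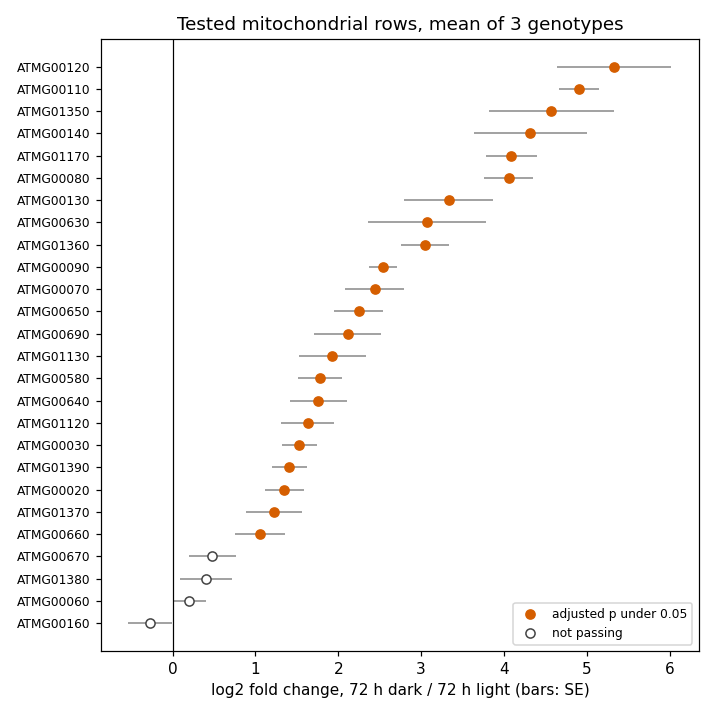
Log2 fold change (x axis) of 72 h of darkness over 72 h of light for the 26 members tested (y axis), as the mean of 3 genotypes with 6 libraries in each condition. Bars are standard errors and filled points passed at an adjusted p under 0.05 in edgeR's quasi-likelihood test. The 4 open points are ATMG00670, ATMG01380, ATMG00060 and ATMG00160.

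The members with the fewest counts rest on single reads in the light. ATMG00120 had 99 counts over the 6 dark libraries at 72 h and 3 over the 6 light libraries, a ratio per depth of 33.1 (exact 95% interval 11 to 163). ATMG01350 had 97 and 4 (ratio 24.3, interval 9.21 to 91.1). ATMG00140 had 131 and 7 (ratio 18.8, interval 8.86 to 47.6), and ATMG00130 109 and 13 (ratio 8.42, interval 4.72 to 16.3). In each of these 4 the dark libraries did not overlap the light libraries. A row with so few counts in the light met the limit on summed counts and the filter mainly through its dark libraries, so these 4 had to be high in darkness and their values are a description only. ATMG00630, with 49 counts against 7, and ATMG01220, with 37 against 19, overlapped. ATMG00630 was also low at 0 h, with 5 counts, and met the limit and the filter mainly through its dark libraries. Its call is likewise a description only. So is that of ATMG00690, with 27 counts at 0 h and 45 in light against 183 at 72 h of darkness. The ratio of ATMG01220 was 1.95 (interval 1.1 to 3.6), and it was not tested. These intervals cover counting error only.

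Members with neighbouring codes had unequal estimates of fold change, which were not tested against each other. At 72 h against light the log2 fold change was 3.05 (SE 0.29) for ATMG01360 and 1.22 (SE 0.34) for ATMG01370. ATMG00640, ATMG00650, ATMG00660 and ATMG00690 rose by 1.76, 2.25, 1.05 and 2.11 on the log2 scale, while ATMG00670 between them did not pass. The value of ATMG00690 is a description only, since that row met the filter mainly through darkness. The sources used here give no strand setting for the counting, and whether these neighbours overlap was not checked.

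The members changed by unequal factors within the same libraries. Each of the 11 next most counted members was set against ATMG00020, classed above as ribosomal RNA, in the same library. This used a log2 ratio of counts with 0.5 added, a comparison chosen after the values were seen. The ratio of 6 members was higher in the 6 dark libraries than in the 6 light libraries at 72 h with no overlap. The difference in log2 ratio was 3.50 for ATMG00110, 2.82 for ATMG01170, 2.70 for ATMG00080, 1.68 for ATMG01360, 1.17 for ATMG00090 and 1.01 for ATMG00070. The ratio was lower in darkness, also with no overlap, for ATMG00160 by -1.62 and for ATMG00060 by -1.14. Each of these 8 had an exact two-sided permutation p of 0.002165, the smallest that 6 against 6 libraries allow. The adjusted p of each over the 11 ratios was 0.002976 in this permutation test. Fold changes of these members in the same libraries were already known, so these p-values describe the separation and add no separate support. The test took the 6 libraries of a condition as exchangeable across genotypes.

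For the other 3 the ratio did not pass. The difference was 0.04 for ATMG01390 (exact permutation p = 0.578), 0.17 for ATMG00030 (exact permutation p = 0.104) and 0.36 for ATMG00640 (exact permutation p = 0.126). The raw ratio of ATMG01390 to ATMG00020 had a median between 0.649 and 0.781 in all 6 conditions. That of ATMG00110 went from a median of 0.00358 at 0 h to 0.0321 after 24 h and 0.0707 after 72 h of darkness, with 0.00711 in 72 h of light. As a share of member counts, ATMG00020 had a median of 44.8% at 0 h and 37.9% after 72 h of darkness, and ATMG00160 one of 2.79% and 0.766%. With ATMG01390 in place of ATMG00020, or without replicate 1 or replicate 2 of ivd1-2 at 72 h of darkness, the same 8 ratios passed in the same direction.

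The rise in darkness was measured in each genotype, with 2 dark and 2 light libraries at 72 h. In WT, 17 members rose and none fell (31.9% and 31.7% of all genes). In ivd1-2, 19 rose and none fell (31.7% and 32.1%). Its count was 18 without its replicate 1 in darkness, 14 without its replicate 2 in darkness, and 13 to 18 as each of its 4 libraries was left out. In hml1-2, 21 rose and none fell (31.4% and 32.5%). The median log2 fold change of the members was 2.09, 1.94 and 2.17 in that order. As each library was left out the count ran from 14 to 18 in WT and from 15 to 21 in hml1-2.

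ATMG00110 was at 14.9 ± 4.39 CPM (SD, n = 2) in WT, 14.1 ± 7.48 in ivd1-2 and 15.3 ± 2.61 in hml1-2 after 72 h of darkness. In 72 h of light it was at 0.521 ± 0.0243, 0.510 ± 0.088 and 0.427 ± 0.116 CPM. The genotypes overlapped in both conditions. ATMG00020 was at 191 ± 44.3 CPM in WT, 239 ± 113 in ivd1-2 and 201 ± 1.62 in hml1-2 after 72 h of darkness, and at 100 ± 36.9, 71.4 ± 10.4 and 77.3 ± 25 CPM in the light. Its log2 fold change in WT was 0.93 (SE 0.41, adjusted p = 0.0544, edgeR). It passed in both mutants. In WT it passed without replicate 1 in light (adjusted p = 0.0337, edgeR) and in hml1-2 it did not without replicate 1 in light (adjusted p = 0.0825, edgeR).

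No member passed between a mutant and WT in edgeR's test. Averaged over the 6 conditions, none rose or fell in ivd1-2, where 7.87% of all genes were higher and 8.58% lower, or in hml1-2, where 0.0154% were higher and 0.0103% lower. At 72 h of darkness none differed in ivd1-2 (12.6% of all genes higher, 10.7% lower) or in hml1-2 (0% higher, 0.00514% lower). At an unadjusted p under 0.05 the counts were 0, 0, 1 and 0 members, and DESeq2's test called none at an adjusted p under 0.05. The member below 0.05 was ATMG00580, with 0.549 ± 0.156 CPM in ivd1-2 and 1.02 ± 0.547 in WT after 72 h of darkness (SD, n = 2), a log2 fold change of -0.89 (SE 0.42, adjusted p = 0.138, edgeR).

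Whether the change from light to darkness differed by genotype was tested as well. No member passed in ivd1-2 (2.62% of all genes higher, 1.91% lower) or in hml1-2 (0% higher, 0.00514% lower). At an unadjusted p under 0.05 there was 1 member in ivd1-2, ATMG00630, and 0 in hml1-2, and DESeq2's test called none. ATMG00630 was at 0.145 ± 0.0143 CPM in ivd1-2 and 0.428 ± 0.328 in WT after 72 h of darkness (SD, n = 2), and its adjusted p was 0.223 in edgeR's test. The largest standard errors belonged to the members with few counts, so for these only large differences between genotypes were detectable at this depth. Members with many counts were limited too, by 2 libraries in a group. ATMG00020, the most counted, stood at 239 ± 113 CPM in ivd1-2 and 191 ± 44.3 in WT after 72 h of darkness (SD, n = 2). The lack of calls thus does not show that the genotypes are equal.

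Nuclear genes for the respiratory complexes were compared at 72 h in the mean of the genotypes, where 38.8% of all genes rose and 39.5% fell. Against 72 h of light, 0 of 6 genes of complex II (succinate dehydrogenase) rose after 72 h of darkness and 2 fell, and 0 of 9 of complex V (ATP synthase) rose and all 9 fell, with a median log2 fold change of -0.06 and -0.81. In complex I (NADH dehydrogenase) 2 of 16 rose and 10 fell (median -0.45), and in complex III with cytochrome c 1 of 11 rose and 8 fell (median -0.42). In complex IV (cytochrome c oxidase) 3 of 9 rose and 4 fell (median 0.04). Of 7 nuclear mitoribosome genes 2 rose and 3 fell (median -0.19). For complexes II and IV and the mitoribosome the shares that fell lie near that of all genes, and the counts describe these small lists only. The complex II list turned on the pair of ivd1-2 libraries after 72 h of darkness. In ivd1-2 2 of its 6 genes rose and 1 fell, with a median of 0.32 (31.7% and 32.1% of all genes), but 0 rose and 3 fell without replicate 1 (median -0.41) and 4 rose and 1 fell without replicate 2 (median 0.81). In the mean of the genotypes 4 fell without replicate 1 (median -0.35), and 2 rose and 2 fell without replicate 2 (median 0.16). At 72 h of darkness 3 of the 6 were higher in ivd1-2 than in WT (12.6% of all genes), 1 without replicate 1 and 4 without replicate 2. In WT and hml1-2 the median was -0.34 and -0.35. In complex III with cytochrome c 2 rose and 8 fell without replicate 2. For the mitoribosome genes, 1 rose and 4 fell without replicate 2, and the median of complex IV was -0.09 and -0.04 without replicate 1 and 2.

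Single genes of these lists went far in both directions. GAMMA CAL2, a gamma carbonic anhydrase-like subunit of complex I, stood at 355 CPM in darkness and 36.4 in light, a log2 fold change of 3.28 (SE 0.09). GAMMA CA2, of the same family, fell from 59.6 to 23.0 CPM (-1.37, SE 0.08). ATP5, the delta subunit of mitochondrial ATP synthase, fell from 111 to 34.1 CPM (-1.70, SE 0.08), and ATP3, the gamma subunit, from 138 to 78.7 CPM (-0.81, SE 0.06). CYTC-2, a cytochrome c, fell from 21.9 to 6.33 CPM (-1.88, SE 0.24). SDH5, a succinate dehydrogenase subunit, fell from 82.0 to 63.1 CPM (-0.39, SE 0.08). The mitoribosome gene RPS14 rose from 15.8 to 28.8 CPM (0.86, SE 0.08). Of the same list, NFD3 fell from 9.04 to 4.99 CPM (-0.88, SE 0.15), and HLL, a gene with few counts, from 0.963 to 0.0308 CPM (-5.42, SE 0.61).

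Nuclear genes that act on mitochondrial nucleic acids moved both ways. Of 10 genes for mitochondrial transcription, DNA upkeep and RNA decay, 4 rose and 1 fell, and the median log2 fold change was 0.25. Without replicate 2 of ivd1-2 at 72 h of darkness 4 rose and 2 fell (median 0.14). AT5G15700, annotated as a DNA/RNA polymerase superfamily protein, stood at 20.1 CPM in darkness and 3.31 in light, a log2 fold change of 2.61 (SE 0.21, adjusted p = 2e-10, edgeR). AT5G14580, a polyribonucleotide nucleotidyltransferase and so an enzyme of RNA 3′ end decay, rose from 0.788 to 2.25 CPM (1.43, SE 0.27). POLGAMMA1 and POLGAMMA2, both organellar DNA polymerases, moved in opposite directions, POLGAMMA1 from 22.9 to 64.2 CPM (1.39, SE 0.21) and POLGAMMA2 from 60.7 to 39.2 CPM (-0.64, SE 0.11).

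Of 19 tested genes for splicing, editing and end processing of mitochondrial RNA, 11 rose and 3 fell (median 0.55). RIP1, an RNA editing factor, rose from 20.9 to 58.1 CPM (1.48, SE 0.18), and PMH2, a putative mitochondrial RNA helicase, from 20.1 to 35.8 CPM (0.83, SE 0.10). PRORP1, a protein-only RNase P that trims tRNA 5′ ends in organelles, fell from 43.9 to 14.0 CPM (-1.66, SE 0.17). Against the shares of all genes (38.8% rose, 39.5% fell) these lists are small, and the counts describe them only.

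Rows of the plastid genome, the other organelle genome, moved both ways. Of 85 plastid rows tested, 25 rose, 16 fell and 44 did not pass at 72 h of darkness against light in the mean of the genotypes, with a median log2 fold change of 0.17. By genotype that median was -0.32 in WT, 0.63 in ivd1-2 and 0.05 in hml1-2. In ivd1-2 it turned with the library left out: 38 rows rose and 1 fell without replicate 1 of darkness (median 1.19), and 2 rose and 14 fell without replicate 2 (median -0.34). The mean of the genotypes turned as well, with 33 that rose and 12 that fell (median 0.36) and 13 and 27 (median -0.20). With all libraries, in WT, ivd1-2 and hml1-2, 1, 24 and 13 rows rose, and 13, 3 and 8 fell. Of all genes 31.9, 31.7 and 31.4% rose and 31.7, 32.1 and 32.5% fell in these genotypes. The change from light to darkness passed as different from that of WT in 0 of 85 plastid rows in either mutant in edgeR's test. At an unadjusted p under 0.05 it was higher in 12 rows in ivd1-2 and 3 in hml1-2 and lower in none, and DESeq2's test called 2 rows in ivd1-2 and 0 in hml1-2. In ivd1-2 5 rows passed without replicate 1 of darkness and 0 without replicate 2. Against 0 h the plastid median was highest after 24 h, at 0.58, and 0.14 after 72 h, while the median of the mitochondrial members was higher at each later time.

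**Figure D5:**
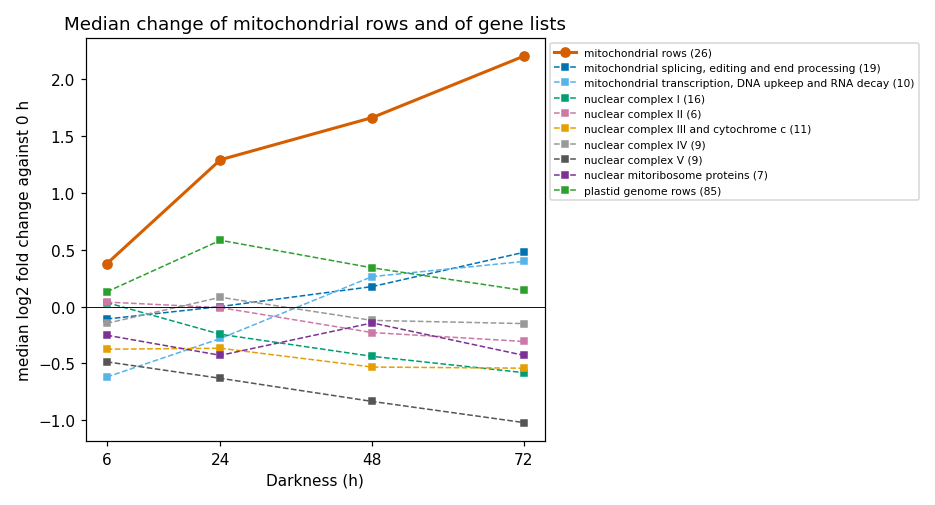
Median log2 fold change against 0 h (y axis) by hours of darkness (x axis), as the mean of 3 genotypes, for the 26 mitochondrial members tested and for 9 lists of nuclear or plastid genes, with the number tested in brackets. The mitochondrial median climbs from 0.38 to 2.20, the plastid median peaks at 24 h, and that of nuclear complex V falls to -1.02.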

How the data were processed

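The authors deposited 1 table of raw read counts per gene for each of 36 libraries, with no normalization. Libraries were Illumina TruSeq stranded, per the labels, which speak of mRNA and name no selection step. They are taken as polyadenylated RNA, so a level reflects the transcripts captured and not all RNA of a gene. The submitters' processing notes list the TAIR10 build, HTSeq, TopHat 1.4.1, Trimmomatic 0.30, Cuffdiff 2.1.1 and SAMtools 0.1.19, with no settings. Rows that name no gene were left out of library sizes: reads in no gene (0.582 to 1.47% of all counted reads) and ambiguous reads (1.70 to 2.36%).

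Counts were tested in R 4.3.3 with edgeR 4.0.16: filterByExpr on the 18 groups (minimum count 10, minimum total 15), TMM scaling and the quasi-likelihood test in 1 fit of all 36 libraries, with Benjamini-Hochberg adjustment over 19457 genes. Standard errors were derived from the fold change and its F statistic. The procedure was tested on simulated data with known changes. DESeq2 1.42.0 was an alternative. Levels are CPM on the TMM scale. Libraries were compared with each other, and none were identical.

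Members and gene lists were chosen with earlier results of these data known. Values per library are given for the 12 most counted members, and in each comparison up to 5 passing members with the largest change could be named. Of each nuclear list, 2 to 4 genes with the smallest p could be named. Not all of these were printed, and none was named for complex IV. Other members were named after their values were seen. The design planned to name members by role, but the reference (RefSeq, TAIR10.1) does not pair their codes with names, so codes stand alone. The exception is the class of ATMG00020, ATMG01390 and ATMG01380 as ribosomal RNA, taken from the gene lists. No sequence or coordinate is given because the files use TAIR10. The alternatives were DESeq2 size factors, DESeq2's test, no filter, a mean of at least 1 CPM, only the groups compared, the replicate number as a block, each library left out (with the genes tested and the scaling factors of all libraries kept), a limit of 1000 counts, and shares without the rows ATMG00020, ATMG01380 and ATMG01390.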

Additional observations from a re-analysis of the deposited data

Results flagged for a closer look

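Reads assigned to no gene lie outside the counts per gene, and their share was higher after 72 h of darkness than in 72 h of light. The median over the 6 libraries at 72 h of darkness was 1.21% of all counted reads, with a range of 1.09 to 1.47%. In the 6 libraries of 72 h of light the median was 0.684% and the range 0.611 to 0.782%, with no overlap. Within groups, replicate 1 had the higher share of reads in no gene in 4 of the 18 groups and the higher mitochondrial share in 16. The deposited tables do not say where in the genome these reads lie.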

How the results depend on the processing

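For the members printed with a test, or with the largest passing changes, 1231 values were recomputed for 73 combinations of member and comparison with the genes tested and the scaling kept where a library was left out. Of these, 1179 kept the call, 30 lost it, 22 gained it and 0 changed direction. Requiring a mean of at least 1 CPM, which tests fewer members, left 12 members that rose after 24 h of darkness, 12 after 48 h, 13 after 72 h, and 13 at 72 h against light (9 in WT, 11 in ivd1-2, 13 in hml1-2). A limit of 1000 counts, which keeps 15 members, gave 12 after 48 h, 13 after 72 h and 13 against light (9, 11 and 13 by genotype). DESeq2's test gave 3 that rose after 6 h. With DESeq2 size factors 1 member, ATMG00670, fell after 48 h. With the replicate number as a block, 10 rose after 6 h, 2 fell after 48 h (ATMG00160, adjusted p = 0.00198, and ATMG00670) and 1 after 72 h (ATMG00160, adjusted p = 0.00729, edgeR). Same-numbered deviations correlated over 0.1 in 120 of 153 pairs of groups (median 0.274, lowest -0.333), short of every pair, so the numbers were not taken to pair the libraries. Leaving out each library in turn gave 3 to 7 members that rose after 6 h, 0 to 2 that fell after 48 h and 0 to 1 after 72 h, and at 72 h against light 14 to 18 that rose in WT, 13 to 18 in ivd1-2 and 15 to 21 in hml1-2. Choosing the genes and the scaling again in each such fit, an alternative set apart after seeing the data, made replicate 1 of ivd1-2 at 72 h of darkness the TMM reference in 22 of 36 fits and raised the genes tested from 19457 to 19714 or more. The median of all genes at 72 h against light then ran from -0.23 to 0.02. The ranges became 3 to 9, 0 to 2, 0 to 2, 10 to 17, 13 to 18 and 11 to 20 in the same order. At 72 h against light ATMG00060 went below 0 without replicate 1 of hml1-2 (-0.085) or WT (-0.14) in darkness or replicate 2 of hml1-2 (-0.0695) or WT (-0.10) in light, and ATMG01380 without replicate 1 of WT in darkness (-0.022) or replicate 2 of hml1-2 in light (-0.0067). With that library as TMM reference and all libraries kept, 2 members fell after 48 h and 1 after 72 h. Without the rows ATMG00020, ATMG01380 and ATMG01390 the mean mitochondrial share was 0.00539% at 0 h. After 6, 24, 48 and 72 h in darkness it was 0.00704, 0.0103, 0.0133 and 0.0171%, against 0.00521% in light. Among the within-library ratios, tried after seeing the data, that of ATMG01390 to ATMG00020 ran from -0.0033 to 0.0805 as each library was left out, below 0 without replicate 1 of WT in 72 h of light, and that of ATMG00030 passed (difference 0.21) without replicate 1 of WT at 72 h of darkness. The cause of the other changes was not tested. Members with few counts are limited by depth.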
